A study of Mus musculus with 2 samples.

Results

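The 6 genes described here encode transcription factors that steer myeloid progenitors into granulocytes and monocytes. They were chosen by gene symbol, as Cebpa, Cebpb, Cebpd, Cebpe, Gfi1 and Spi1, and all 6 were among the 26124 genes listed for the count matrices, each with 1 identifier. Their transcripts were followed through progenitors, neutrophil stages and monocytes of the spleen and compared between a mouse with sickle cell disease (SCD) and a control mouse called wild-type. Droplet-based single-cell RNA sequencing had been run on 1 spleen per genotype, after red cells had been lysed and a magnetic negative selection for dendritic cells (DCs) had been applied. This selection set which cells remained, so shares of cells are shares of an enriched suspension. The study asked how chronic hemolysis alters myeloid differentiation.

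The SCD mouse was of the Berkeley model, homozygous for the alpha globin deletion Hbatm1Paz, for the beta globin deletion Hbbtm1Tow and for the transgene Tg(HBA-HBBs)41Paz, which carries human alpha globin and sickle beta globin. The wild-type mouse was not free of these alleles. It was homozygous for Hbatm1Paz, heterozygous for Hbbtm1Tow and hemizygous for the transgene, so it kept 1 intact mouse beta globin allele, and it was labelled as non-sickling. Both mice were 12 to 16 weeks old and untreated. The mouse beta globin transcripts matched the labels, with 1764 counts per 1000000 (CPM) of Hbb-bs in wild-type and 16.3 in SCD cells. After filters on quality, 9720 wild-type and 11858 SCD cells were kept, with a median of 5159.5 and 9065.5 unique molecular identifiers (UMIs, counted transcript molecules) per cell. The files shared 88 cell barcodes, carried by 68 kept wild-type and 38 kept SCD cells. Without these cells the same 1 pair of gene and class lay past 2-fold. Erythroid-side progenitors, a class described below, then kept 45 wild-type cells, too few for a ratio. With 1 animal per genotype no test of a genotype difference was possible, and all 95% intervals below (exact Poisson for summed UMIs, exact binomial for shares of cells) cover counting error only.

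C/EBP proteins are basic leucine zipper factors that bind DNA as dimers. C/EBPα, encoded by Cebpa, acts with PU.1, encoded by Spi1, when progenitors enter the granulocyte and monocyte lineages. GFI1 is a zinc finger repressor that restrains monocyte genes in granulocyte precursors. C/EBPε is required for the secondary granules of neutrophils, C/EBPβ serves granulopoiesis under demand and the survival of non-classical monocytes, and C/EBPδ is known from late neutrophil maturation and the acute phase response. Mice without C/EBPε form neutrophils that lack specific granule proteins, and mice without PU.1 lack most myeloid cells.

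The genes were placed in the mouse genome (GRCm38) by the GENCODE annotation. Cebpa lies at chr7:35119293-35121928 and Cebpb at chr2:167688915-167690418, both on the plus strand. Cebpd lies at chr16:15887286-15891031 and Spi1 at chr2:91082390-91115756, also on the plus strand. Cebpe (chr14:54710360-54712174) and Gfi1 (chr5:107716657-107726036) lie on the minus strand. Cebpb overlaps Tmem189 and Cebpd overlaps Spidr on the opposite strand. Whether the counting used the strand is not given in the sources used here, so the UMIs of these overlapping pairs are uncertain where the genes share bases.

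Promoter sequence from RefSeq (GRCm38.p6) was found for 3 of the 6 genes. It is shown for Cebpa and Cebpb, whose levels both differed in classical monocytes, and for Gfi1, whose profile followed that of Cebpe. For Cebpa and Cebpb the 250 bases before the start of transcription are given, and capitals mark the motif letters that were searched. For the first Gfi1 start only a window of 30 bases is given, because its region overlaps exons. The 250 bases of a second Gfi1 start (chr5:107724344-107724593), which overlap 0 exons, are not printed here.
Cebpa, chr7:35119043-35119292, plus strand: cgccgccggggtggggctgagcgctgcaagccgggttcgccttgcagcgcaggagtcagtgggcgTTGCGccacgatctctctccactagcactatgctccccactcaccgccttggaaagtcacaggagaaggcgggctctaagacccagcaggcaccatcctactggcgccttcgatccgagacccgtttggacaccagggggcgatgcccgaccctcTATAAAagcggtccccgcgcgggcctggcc
Cebpb, chr2:167688665-167688914, plus strand: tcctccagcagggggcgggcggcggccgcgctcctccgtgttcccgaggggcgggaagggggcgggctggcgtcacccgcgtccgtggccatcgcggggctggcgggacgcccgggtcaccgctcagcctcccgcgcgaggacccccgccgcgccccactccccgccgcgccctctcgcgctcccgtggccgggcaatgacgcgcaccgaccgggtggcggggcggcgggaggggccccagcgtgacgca
Gfi1, chr5:107725930-107725959, minus strand: cgaaggtaggtTTGCTGAActgctgtgcct

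The motifs searched on both strands were TTGCNNAA (a C/EBP full site), TTGCG (a shorter C/EBP site), AGGAAG (PU.1), AAATCA (GFI1) and TATAAA (the TATA box). The Cebpa window held TTGCG from 185 to 181 bases and TATAAA from 30 to 25 bases upstream of the start. The Cebpb window held none of these letters. The Gfi1 window held TTGCTGAA from 143 to 136 bases upstream of its first start, and a second Gfi1 start held CTTCCT, the reverse complement of AGGAAG, from 108 to 103 bases upstream. Among all 32851 mouse promoters of the same 250 bases, TTGCNNAA stood in 9.56%, TTGCG in 14.5%, AGGAAG in 29.5%, AAATCA in 12.4% and TATAAA in 12.4%. These matches describe letters, not binding.

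The cells fell into 44 clusters, which were named from marker lists that held none of the 6 genes, and 32 clusters received a name. The clusters were called promyelocyte-like (20 wild-type and 228 SCD cells, led by Elane, Prtn3 and Ms4a3), cycling neutrophil-like (69 and 650), immature neutrophil-like (221 and 1710, led by Ltf, Ngp and Camp), early intermediate neutrophil-like (208 and 1706, led by Mmp8 and Mmp9), late intermediate neutrophil-like (146 and 1883, led by Retnlg) and mature neutrophil-like (3700 and 997, led by Il1b, Csf3r and Cxcr2). Monocyte-like cells were cycling (47 and 528), classical (617 and 936, led by Fn1, Vcan and Ccr2) or non-classical (403 and 56, led by Ace and Cd300e). Progenitor-like cells lay on an erythroid side (52 and 68 cells) or an Mpo side (8 and 121). A further promyelocyte-like cluster with more monocyte than neutrophil markers held 17 and 130 cells. These classes are called below by their short names. In the wild-type library mature cells made up most neutrophils, whereas the SCD library held most of its neutrophils before maturity.

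Levels are given as CPM, the summed UMIs of a gene per 1000000 UMIs of the class, and differences as log2 ratios of SCD over wild-type after adding 5 CPM. Ratios were formed in the 8 classes of progenitors, neutrophils and monocytes with at least 50 cells in both libraries, which gave 48 pairs of gene and class. A pair passed the filter on low values when its mean over both libraries reached 10 CPM with 20 UMIs in all, and 36 of the 48 did. Of these 36 pairs, 1 was at least 2-fold higher in the SCD library, Cebpe in non-classical monocytes (where 2.75% of all tested genes were as much higher), and 0 were at least 2-fold lower.

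**Figure D1:**
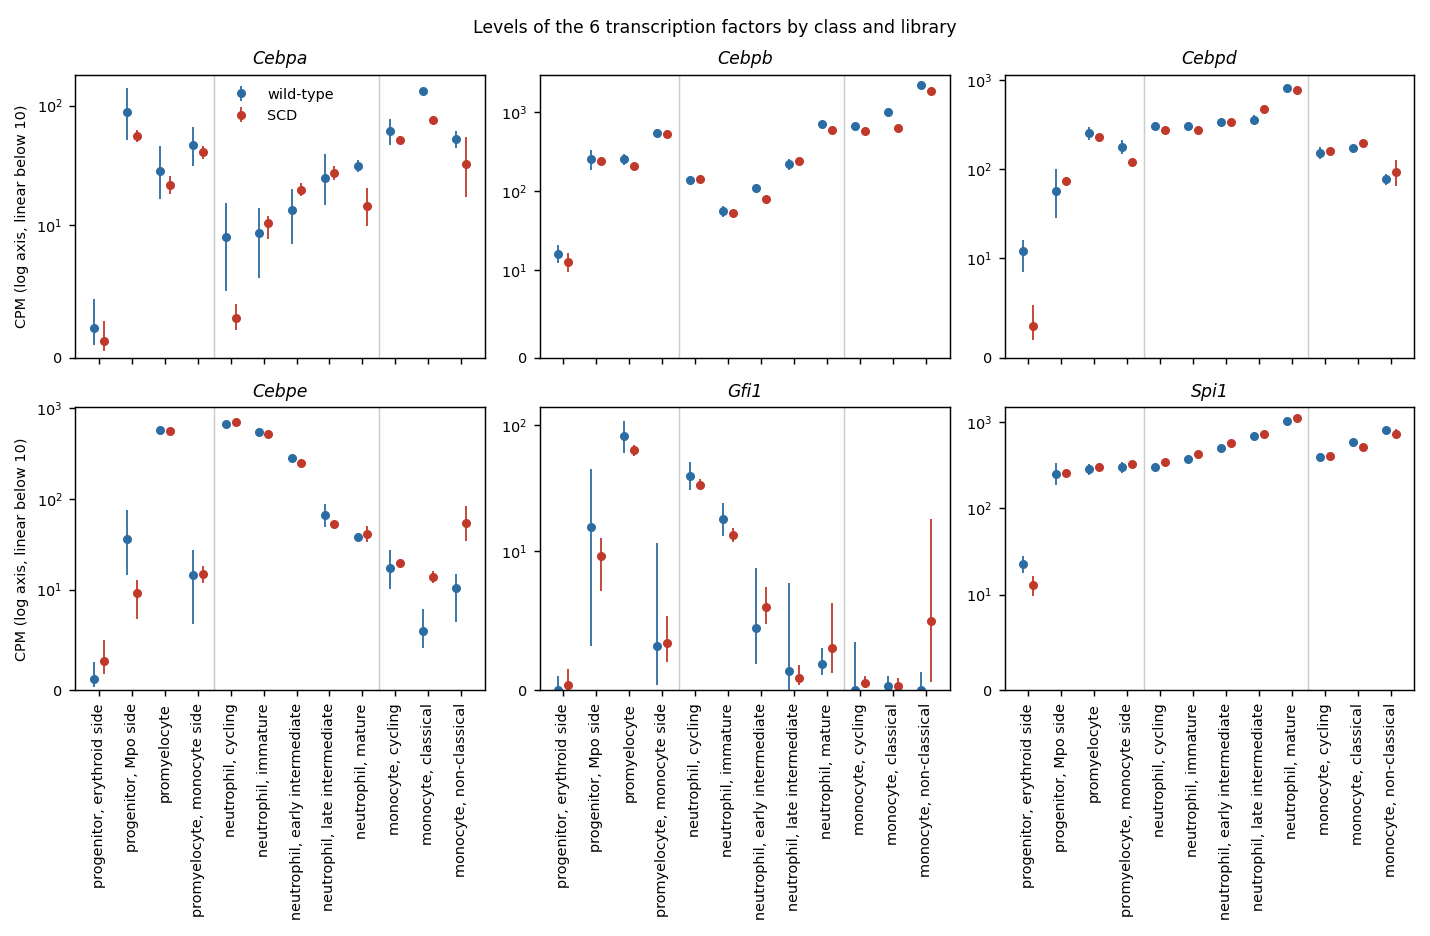
Level of each transcription factor in CPM (axis logarithmic above 10 and linear below) in progenitors, neutrophil stages and monocytes of the wild-type (blue) and SCD (red) library, with exact 95% Poisson intervals of the counts as bars. Cebpe and Gfi1 fell from the cycling to the mature stage in both libraries, whereas Spi1 and Cebpd had their highest levels in mature neutrophils.

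Spi1, which encodes PU.1, was detected in every class and rose along the neutrophil stages in both libraries. Its level was 284 CPM in wild-type and 299 CPM in SCD promyelocytes. It was 297 and 340 CPM in cycling, 370 and 430 CPM in immature, 504 and 576 CPM in early intermediate, 693 and 726 CPM in late intermediate and 1036 and 1117 CPM in mature neutrophils, wild-type first. The intervals of neighbouring stages were apart from the immature to the mature stage in each library. Mature neutrophils had the highest Spi1 level of all classes with at least 50 cells, followed by non-classical monocytes at 817 CPM in wild-type and 733 CPM in SCD, the latter not apart from late intermediate neutrophils. Spi1 was low on the erythroid side of the progenitors, with 22.6 CPM in wild-type and 12.9 CPM in SCD cells (a log2 ratio of -0.62, -0.99 to -0.24), and stood at 253 and 256 CPM on the Mpo side. The direction on the erythroid side turned to 0.24 without called doublets and to 0.26 without the mitochondrial and ribosomal limits. In the erythroid cells, a class outside the 8 compared ones, Spi1 was 49.6 CPM in 91 wild-type (40.6 to 60.2) and 10.8 CPM in 321 SCD cells (9.30 to 12.4), a log2 ratio of -1.79 (-2.08 to -1.49). Of all tested genes 3.69% were at least 2-fold lower and 0.468% higher in these SCD cells, and Cebpb (-0.84, -1.16 to -0.51), Cebpd (-0.89, -1.31 to -0.47) and Cebpa (-0.68, -1.19 to -0.24, under the filter) had negative ratios there as well. The class joined 3 clusters that the libraries filled unequally. A cluster led by Hbb-bs held 59 wild-type and 85 SCD cells, 1 led by Bex4 held 16 and 196, and 1 led by Hemgn held 16 and 40. Depth differed as well, with a median of 7903 and 65819 UMIs per cell. The part of clusters and depth in the ratios was not tested. At 1000 UMIs per cell the shares with a Spi1 UMI were 5.56% (1.83 to 12.5) and 1.97% (0.725 to 4.23), with overlapping intervals. At 2000 UMIs per cell they were 23.4% (14.5 to 34.4) of 77 wild-type and 3.03% (1.32 to 5.88) of 264 SCD cells, with intervals apart.

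Within the stages Spi1 had small positive ratios that depended on how the stages were drawn. The log2 ratio was 0.19 in cycling (0.055 to 0.33), 0.21 in immature (0.12 to 0.31), 0.19 in early intermediate (0.094 to 0.29), 0.066 in late intermediate (-0.064 to 0.20) and 0.11 in mature neutrophils (0.045 to 0.17). The unweighted mean over the 5 stages was 0.15 (0.11 to 0.20). The sign in mature neutrophils turned when cells with more than 5000 genes (-0.19) or fewer than 1000 genes (-0.29) were left out, when cells failing the mitochondrial and ribosomal limits were kept (-0.19), at a finer clustering (-0.12) and when each library was clustered on its own (-0.22). Separate clustering also turned the early intermediate ratio to -0.062 and left 0.043 in immature neutrophils. In classical monocytes Spi1 was 585 CPM in wild-type and 510 CPM in SCD cells, a log2 ratio of -0.20 (-0.25 to -0.14) that shrank to -0.019 without the mitochondrial and ribosomal limits. None of these differences came near 2-fold.

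Cebpa, the factor of granulocyte and monocyte commitment, had its highest level in classical monocytes in each library among classes with at least 50 cells, at 132 CPM in wild-type and 75.2 CPM in SCD cells. Progenitors on the Mpo side followed in the SCD library with 56.2 CPM, and the 8 wild-type cells of that cluster had 87.7 CPM from 17 UMIs. From there the level fell to 28.5 CPM in wild-type and 21.8 CPM in SCD promyelocytes and to 9.12 and 2.95 CPM in cycling neutrophils. It was 9.42 and 10.3 CPM in immature, 13.3 and 19.8 CPM in early intermediate and 24.9 and 27.4 CPM in late intermediate neutrophils. Cebpa thus had its lowest level of the neutrophil line at the cycling stage of the SCD library and higher levels before and after it. Within the promyelocytes it was 38.1 CPM in SCD cells of the cluster led by Elane and 12.0 CPM in SCD cells of the cluster led by Fcnb, and the wild-type cells of both clusters had 58.6 and 10.7 CPM in the same order.

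In mature neutrophils Cebpa was 31.5 CPM in wild-type (283 UMIs) and 14.4 CPM in SCD cells (33 UMIs). The log2 ratio of -0.91 (-1.32 to -0.50) lay just inside 2-fold. It was -0.53 with an upper limit of 5000 genes per cell, -0.47 with at least 1000 genes and -0.48 when each library was clustered on its own, while a pseudocount of 1 CPM gave -1.08. The largest mature cluster, with 3304 wild-type and 791 SCD cells, had 32.8 and 14.5 CPM. In cycling neutrophils the log2 ratio was -0.83 (-1.38 to -0.29) from 14 and 37 UMIs, a pair under the filter.

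Gfi1 passed 10 CPM in few classes. It was highest in promyelocytes, with 82.2 CPM in 20 wild-type cells (49 UMIs) and 63.4 CPM in SCD cells (364 UMIs). It then fell to 39.7 and 33.8 CPM in cycling and 18.1 and 13.3 CPM in immature neutrophils, and lay under 10 CPM in early intermediate neutrophils (8 and 81 UMIs). In late intermediate and mature neutrophils it stood at 0.921 to 3.05 CPM. The intervals of neighbouring stages were apart from the promyelocyte to the early intermediate stage in both libraries. The promyelocyte cluster led by Elane had 126 CPM of Gfi1 in 7 wild-type and 102 CPM in 73 SCD cells, against 56.1 and 40.3 CPM in the cluster led by Fcnb. In this pair of clusters Cebpe was ordered the other way, with 343 and 390 CPM in the first and 713 and 660 CPM in the second. GFI1 represses monocyte genes such as the receptor Csf1r, and Gfi1 had few UMIs in monocytes, with 0 in 47 cycling and 403 non-classical wild-type cells (up to 2.85 and 1.10 CPM at 3 UMIs) and 2 in 617 classical wild-type cells. In SCD cells it was 0.509 CPM in cycling and 0.342 CPM in classical monocytes. The 56 SCD non-classical monocytes held 2 UMIs, or 4.95 CPM with a wide interval (0.600 to 17.9) that spans the levels of early intermediate neutrophils in both libraries.

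The Gfi1 ratios were imprecise. They were -0.20 (-0.55 to 0.15) in cycling and -0.33 (-0.69 to 0.035) in immature neutrophils, the only classes in which Gfi1 passed the filter. Their intervals included 0. Outside the myeloid line Gfi1 reached 17.8 CPM (13.3 to 23.2) in the 320 early B cells of the SCD library, in the range of immature neutrophils. Gfi1 is known to act in early lymphocytes as well. The 38 wild-type early B cells held 2 UMIs.

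Cebpe, the secondary granule factor, had its highest class level in cycling neutrophils, with 675 CPM in wild-type (634 to 717) and 709 CPM in SCD cells. The wild-type interval overlapped that of the 20 wild-type promyelocytes (516 to 640). Cebpe was 575 and 559 CPM in promyelocytes, 551 and 522 CPM in immature and 281 and 247 CPM in early intermediate neutrophils. It then dropped to 66.4 and 52.2 CPM in late intermediate and 38.3 and 41.0 CPM in mature neutrophils. The wild-type neutrophil stages were all apart in their counting intervals. Progenitors on the Mpo side had only 9.61 CPM in the SCD library (36.1 CPM from 7 UMIs in the 8 wild-type cells), so that Cebpe stood more than an order of magnitude higher in the promyelocytes next to them. The promyelocytes of the monocyte side stayed at 14.4 and 14.8 CPM, and classical monocytes at 5.93 and 13.9 CPM. Progenitors of the erythroid side held 1.11 and 2.97 CPM (4 and 14 UMIs), a log2 ratio of 0.38 (-0.066 to 0.77) for a pair under the filter. Without called doublets that ratio was 2.11.

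Within the neutrophil stages Cebpe differed little between the genotypes. The log2 ratios were 0.070 (-0.022 to 0.16) in cycling, -0.077 (-0.16 to 0.0046) in immature, -0.18 (-0.32 to -0.049) in early intermediate, -0.32 (-0.72 to 0.10) in late intermediate and 0.089 (-0.21 to 0.39) in mature neutrophils. Only the early intermediate interval excluded 0, and that ratio turned to 0.48 when each library was clustered on its own. The mean over stages of -0.084 (-0.19 to 0.025) became 0.20 under the same setting.

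**Figure D2:**
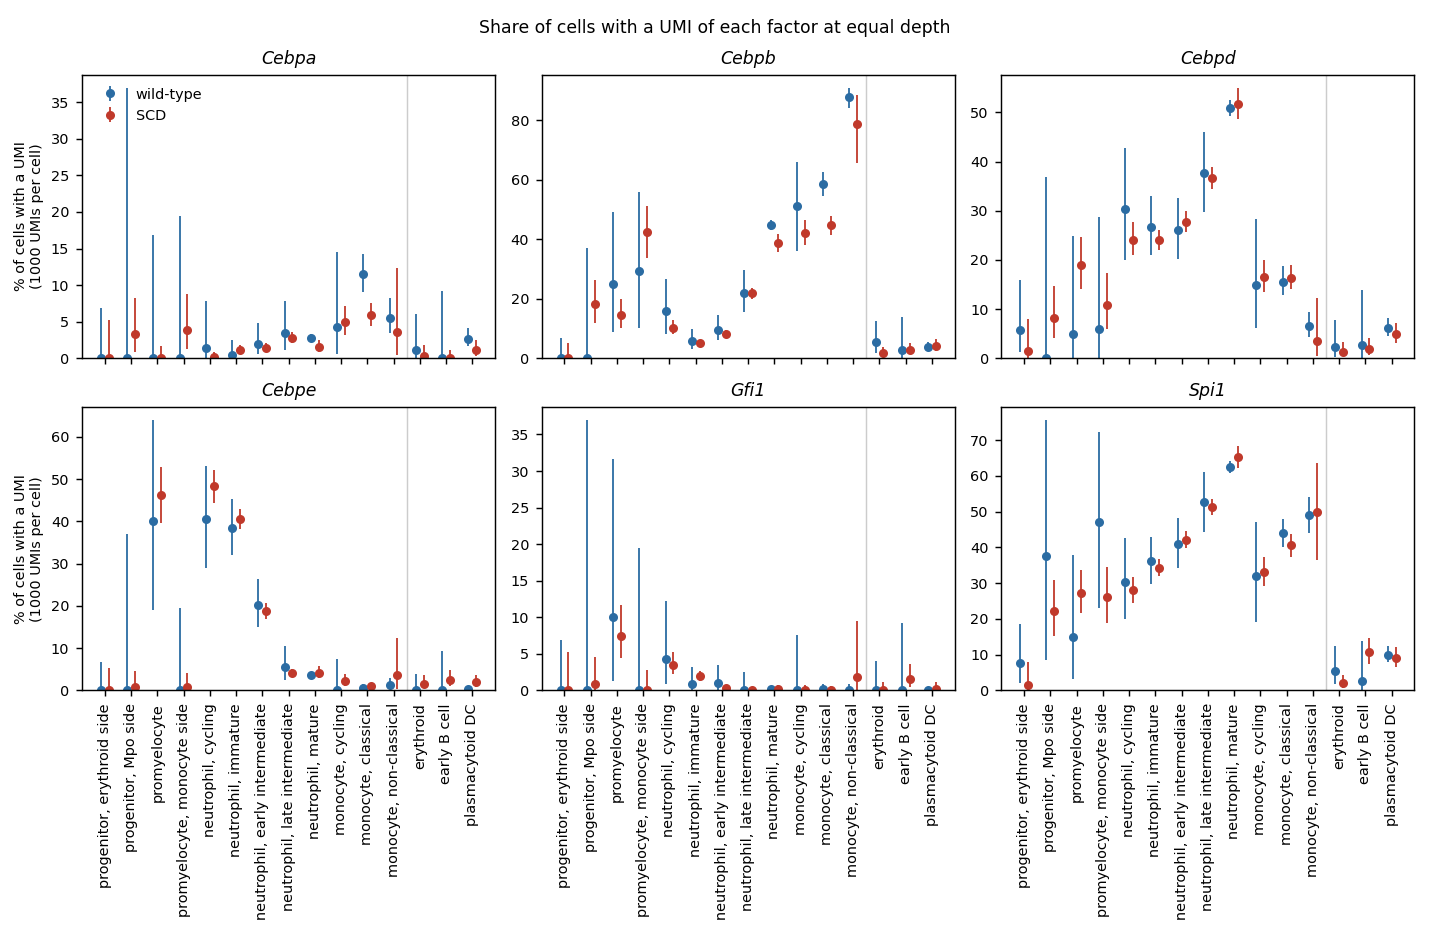
Share of cells with at least 1 UMI of each transcription factor after thinning every cell to 1000 UMIs, with exact 95% binomial intervals, in the wild-type (blue) and SCD (red) library. Classes right of the grey line (erythroid, early B and plasmacytoid DC) serve as background, where Cebpe was found in up to 2.51% of cells.

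At an equal depth of 1000 UMIs per cell, Cebpe was seen in 40.6% of wild-type (28.9 to 53.1) and 48.3% of SCD cycling neutrophils (44.4 to 52.2), in 38.5% and 40.6% of immature and in 20.3% and 18.8% of early intermediate neutrophils. In mature neutrophils the shares were 3.61% of wild-type (3.03 to 4.27) and 4.24% of SCD cells (3.07 to 5.69). Early B cells of the SCD library, which should lack Cebpe, had it in 2.51% (1.09 to 4.88), so the SCD share in mature neutrophils was not told apart from background. The wild-type share was above the 0.268% of plasmacytoid DCs (pDCs) in that library (0.0325 to 0.965) but was not told apart from the 1.71% of wild-type red pulp macrophages (0.468 to 4.32). By level, too, the 36.8 CPM of wild-type red pulp macrophages (24.6 to 52.8) overlapped the 38.3 CPM of mature neutrophils (34.3 to 42.5). Unthinned, at median depths of 2326 and 2113 UMIs, 7.57% and 8.12% of mature neutrophils held a Cebpe UMI, against 9.38% of SCD early B cells at 5867.5 UMIs.

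Cebpd changed little from promyelocytes to early intermediate neutrophils. It was 253 and 229 CPM in promyelocytes, 304 and 274 CPM in cycling, 301 and 273 CPM in immature and 340 and 334 CPM in early intermediate neutrophils, wild-type first. Late intermediate neutrophils had 358 and 473 CPM and mature neutrophils 808 and 761 CPM, the highest level of any class in both libraries. Monocytes lay lower, with 173 and 195 CPM in classical and 76.8 and 91.7 CPM in non-classical cells. Progenitors of the erythroid side held 12.0 and 3.18 CPM (43 and 15 UMIs), a log2 ratio of -1.05 (-1.47 to -0.60) for a pair that did not pass the filter. Its direction turned to 0.44 without called doublets and to 0.028 without the mitochondrial and ribosomal limits, and it was -0.29 with at least 1000 genes per cell.

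In late intermediate neutrophils Cebpd had a log2 ratio of 0.40 (0.22 to 0.58), and in mature neutrophils of -0.087 (-0.16 to -0.012). Which of these differences was larger depended on the setting. With an upper limit of 5000 genes per cell they were 0.17 and -0.37, with at least 1000 genes 0.086 and -0.42, and without the mitochondrial and ribosomal limits 0.19 and -0.37. With each library clustered on its own the mature ratio was -0.40, and no late intermediate ratio could be formed. The other stages ranged from -0.15 (-0.29 to -0.0097) in cycling to -0.023 (-0.14 to 0.099) in early intermediate neutrophils. The mean over stages was -0.0011 (-0.059 to 0.058). In late intermediate neutrophils the median share of immature among immature and mature marker UMIs was 46.7% in wild-type and 31.8% in SCD cells, so the SCD cells of this class lay closer to maturity, and the part of this in the Cebpd ratio was not tested.

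Cebpb ran through a minimum in the middle of the neutrophil line. It was 253 CPM in wild-type and 209 CPM in SCD promyelocytes, 137 and 143 CPM in cycling and 55.3 and 53.1 CPM in immature neutrophils. It then rose to 109 and 79.7 CPM in early intermediate, 220 and 238 CPM in late intermediate and 722 and 592 CPM in mature neutrophils. Its highest level was in non-classical monocytes, with 2239 CPM in wild-type and 1863 CPM in SCD cells. At 1000 UMIs per cell, 87.8% (84.2 to 90.8) and 78.6% (65.6 to 88.4) of non-classical monocytes had a Cebpb UMI, against 3.89% and 4.19% of pDCs.

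Mature neutrophils were not uniform in Cebpb. A small mature cluster led by Cxcl2, Acod1 and Ccl4, genes of activated neutrophils, had 1765 CPM in its 97 wild-type cells (1602 to 1939) and 1803 CPM in its 47 SCD cells (1587 to 2039). The main mature cluster had 699 and 539 CPM, and a cluster led by the interferon-induced genes Ifit1, Isg15 and Rsad2 had 632 and 409 CPM. Cebpd went the other way in the Cxcl2-led cluster, with 413 CPM (336 to 501) in wild-type and 365 CPM (272 to 480) in SCD cells, against 826 and 809 CPM in the main cluster. Cebpa had 2 UMIs per library there, and the Spi1 intervals of both clusters overlapped in the wild-type library (914 to 1173 and 1015 to 1060 CPM). As the clusters were formed from the same cells, these differences are descriptions.

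Between genotypes Cebpb was lower in SCD early intermediate neutrophils, with a log2 ratio of -0.43 (-0.64 to -0.21; -0.96 to -0.19 over the alternatives), and in mature neutrophils, with -0.29 (-0.37 to -0.20). Its ratio was 0.064 (-0.14 to 0.27) in cycling, -0.054 (-0.29 to 0.19) in immature and 0.11 (-0.11 to 0.35) in late intermediate neutrophils. The late intermediate ratio turned to -0.15 with the limit of 5000 genes per cell, -0.27 with at least 1000 genes and -0.21 without the mitochondrial and ribosomal limits, and the immature one was -0.70 when each library was clustered on its own. The value in mature neutrophils depended on where that stage was drawn. It was -0.80 with the limit of 5000 genes per cell, -0.99 with at least 1000 genes, -0.81 without the mitochondrial and ribosomal limits, -0.69 at a finer clustering and -0.89 when each library was clustered on its own.

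**Figure D3:**
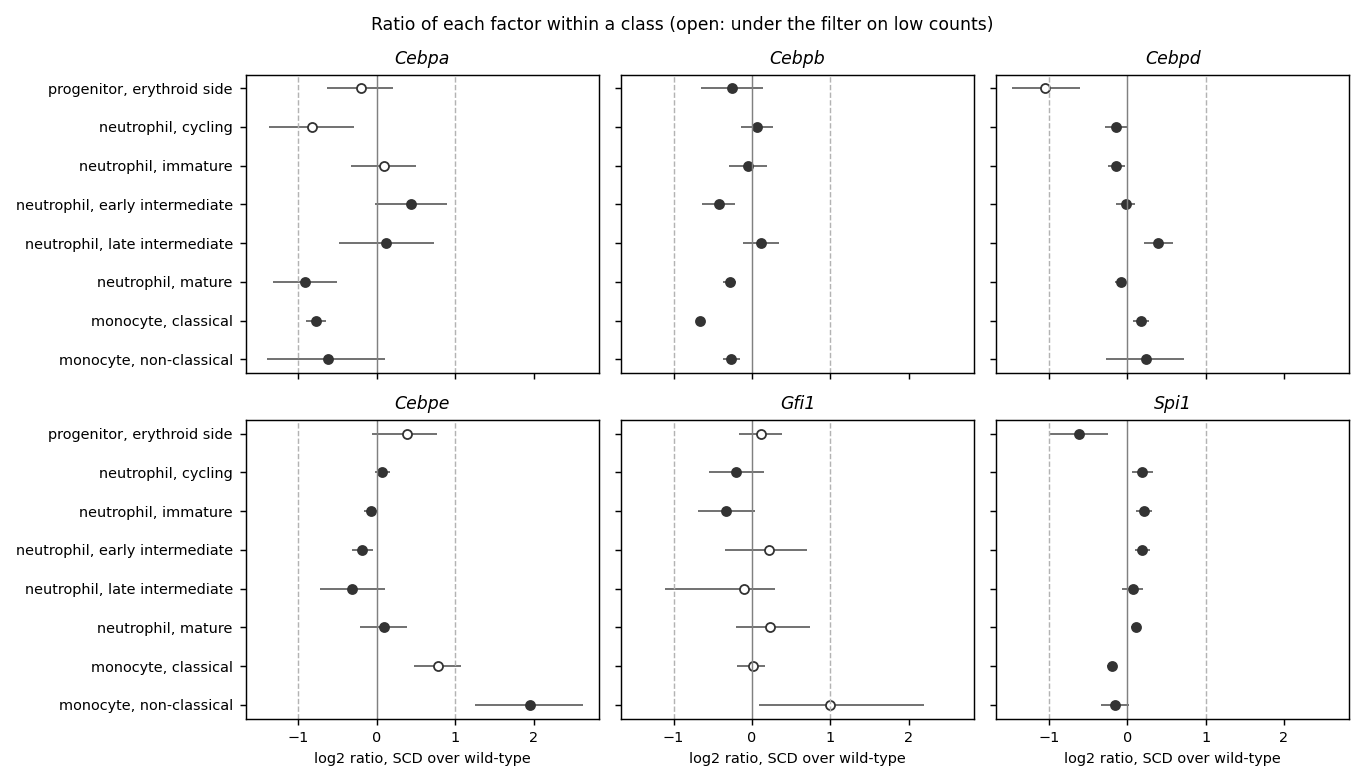
Log2 ratio of SCD over wild-type for each transcription factor in 8 classes, with 95% counting intervals as bars, filled where the pair passed the filter and open where it did not. Dashed lines mark 2-fold. Of the filled points, Cebpe in non-classical monocytes at 1.96 lies beyond 2-fold.

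The counts past 2-fold were set beside those of all tested genes. Of the 5 genes that passed in cycling neutrophils 0 were past 2-fold, where 0.203% of all tested genes were higher and 0.254% lower in SCD. The same count of 0 of 5 held in immature (0.25% of tested genes higher, 0.173% lower), early intermediate (0.377% and 0.357%), late intermediate (1.32% and 0.692%) and mature neutrophils (1.22% and 0.567%). In classical monocytes it was 0 of 4 (0.606% and 1.28%) and in erythroid-side progenitors 0 of 2 (0.229% and 0.417%). In non-classical monocytes 1 of 5 was higher, where 2.75% of tested genes were higher and 3.11% lower. So few genes passed 2-fold in most classes that a count of 0 among 2 to 5 genes was near the background. The median log2 ratio of all tested genes lay between -0.12 in cycling neutrophils and -0.011 in erythroid-side progenitors. Without the pseudocount, over genes detected in both libraries, it was -0.14 in cycling neutrophils, the class of the 8 that median-of-ratios scaling shifted most.

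The stages were filled unequally by the libraries, and sums over all neutrophils differed from the values within stages. Summed over the 5 stages, Cebpb was 462 CPM in wild-type and 132 CPM in SCD neutrophils, a log2 ratio of -1.77 (-1.82 to -1.72), while its unweighted mean over the stages was -0.12 (-0.21 to -0.026). Cebpd fell from 601 to 340 CPM in the sum (-0.81) with a stage mean of -0.0011. Cebpe went from 214 to 403 CPM in the sum (0.90) with a stage mean of -0.084.

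The remaining members showed the same gap. Spi1 was 777 and 520 CPM in the sum (-0.57) with a stage mean of 0.15, and thus opposite in sign. Gfi1 was 8.53 and 13.8 CPM (0.48) with a stage mean of -0.040 (-0.31 to 0.15). Cebpa was 23.3 and 13.8 CPM (-0.59) with a stage mean of -0.22 (-0.44 to 0.00026). For all 6 genes the summed ratio was further from 0 than the stage mean.

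A finer match was made with the share of immature granule UMIs among the immature and mature neutrophil marker UMIs of each cell, cut into 7 ranges from 98 to 100% (least mature) to 0 to 2% (most mature). These are ranges, not cell types, and 1869 of 11290 neutrophils lay within 0.5 percentage points of a limit. Free granule RNA enters this share, and its part was not tested. The most mature range held 1711 wild-type and 44 SCD cells. Cebpe fell from 597 CPM in wild-type and 600 CPM in SCD cells of the least mature range to 351 and 294 CPM between 90 and 98% and to 93.8 and 103 CPM between 50 and 90%. Gfi1 went from 25.6 and 22.1 CPM over 9.42 and 7.14 CPM to 1.49 and 1.85 CPM in the same ranges. The decline of both genes thus lay at the immature end in both libraries. The Cebpe log2 ratio was 0.0077 (-0.055 to 0.071) in the least mature range, -0.25 (-0.37 to -0.13) between 90 and 98% and 0.12 (-0.24 to 0.50) between 50 and 90%. The Gfi1 intervals in these ranges included 0.

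Cebpb rose on the other side of the range. It was 165 CPM in wild-type and 136 CPM in SCD cells between 50 and 90%, 482 and 285 CPM between 15 and 50%, 723 and 489 CPM between 5 and 15% and 724 and 627 CPM between 2 and 5%. The log2 ratio was -0.75 (-0.92 to -0.58) between 15 and 50% and -0.56 (-0.67 to -0.45) between 5 and 15%, so the SCD cells had lower Cebpb at a like share of granule UMIs. The median share inside these ranges still differed, at 20.7% in wild-type and 26.9% in SCD cells of the first and 7.81% and 9.52% of the second, and its part in the ratios was not tested. The Cebpb ratio was also negative between 2 and 5% (-0.21, -0.39 to -0.027) and between 90 and 98%, at 102 and 75.6 CPM (-0.41, -0.63 to -0.18). In the least mature range it was 0.088 (-0.070 to 0.25). Spi1 was 934 and 754 CPM between 15 and 50% (-0.31, -0.42 to -0.19) but 1005 and 1016 CPM between 5 and 15% and 1026 and 1195 CPM between 2 and 5% (0.22, 0.084 to 0.35). Cebpd was 553 and 523 CPM between 15 and 50% and 817 and 694 CPM between 5 and 15%. Averaged over the ranges with at least 50 cells in both libraries, Cebpb had a mean log2 ratio of -0.35 and Spi1 of 0.057.

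**Figure D4:**
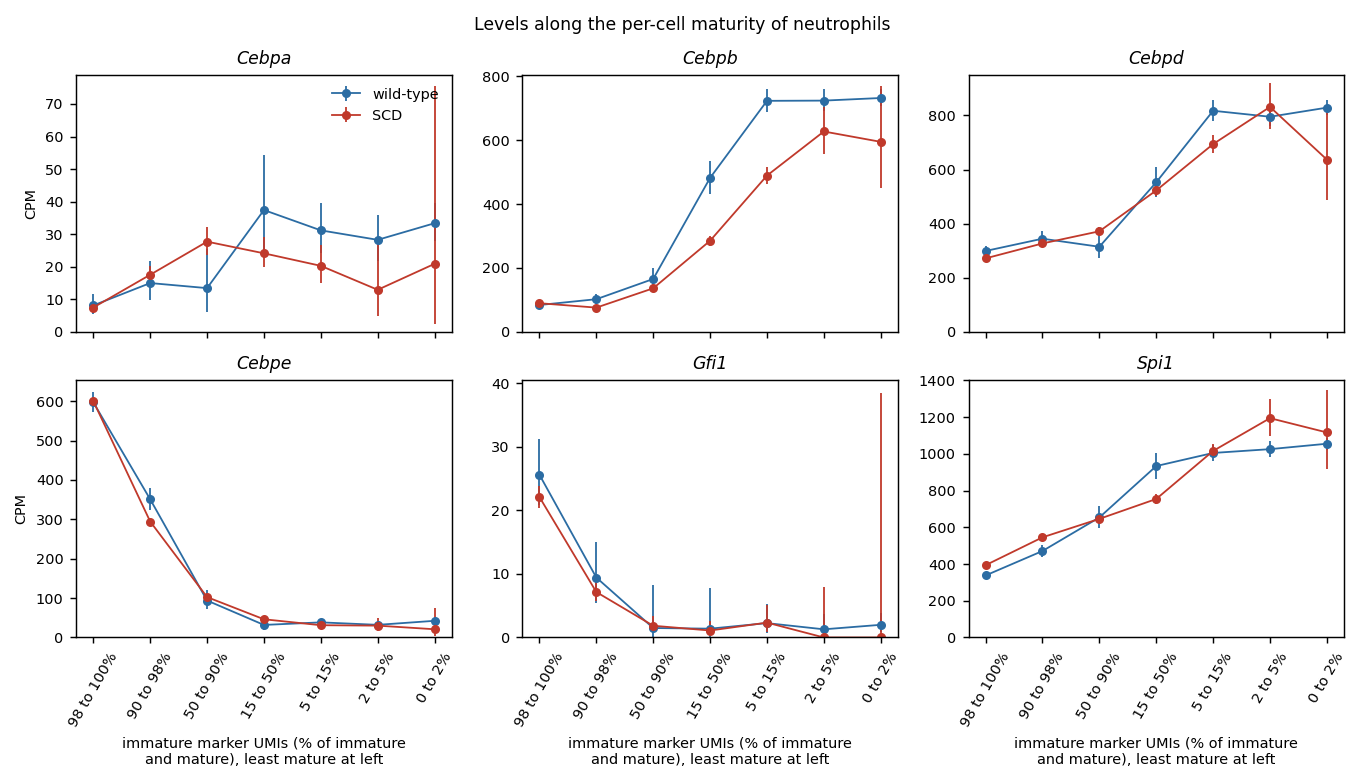
Level of each transcription factor in CPM along 7 ranges of the per-cell share of immature among immature and mature marker UMIs (least mature at the left), with exact 95% Poisson intervals, in the wild-type (blue) and SCD (red) library. Cebpb lies lower in SCD in all ranges but the least mature, with ratio intervals that include 0 between 50 and 90% and between 0 and 2%. The most mature range holds 44 SCD cells.

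UMIs of genes of earlier stages were more frequent in SCD mature neutrophils, as they were in SCD cells of other types. All 9 immature granule markers were higher in mature neutrophils, with a summed level of 1368 CPM in wild-type and 5094 CPM in SCD cells, as were all 10 division markers (40.4 and 136 CPM) and 6 of 7 promyelocyte markers (40.5 and 257 CPM). The summed level of Ltf, Camp and Ngp alone was 240 CPM in wild-type and 3184 CPM in SCD mature neutrophils. In SCD cells that should lack these granule transcripts it was higher still, at 7863 CPM in pDCs, 6637 CPM in early B cells and 5323 CPM in conventional DCs (cDCs), against 462, 55.9 and 417 CPM in wild-type cells, so the granule UMIs of SCD mature neutrophils were not told apart from background. The median share of immature marker UMIs per mature neutrophil was 2.27% in the wild-type and 8.93% in SCD. These values moved with the lower Cebpa and Cebpb of SCD mature neutrophils, and their part in those ratios was not tested.

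In classical monocytes the C/EBP genes divided. Cebpb was 1012 CPM (988 to 1036) in wild-type cells and 635 CPM (621 to 650) in SCD cells, a log2 ratio of -0.67 (-0.72 to -0.62). Cebpa was 132 CPM (124 to 141) and 75.2 CPM (70.3 to 80.3), a log2 ratio of -0.78 (-0.90 to -0.65). Cebpd was 173 and 195 CPM (0.17, 0.071 to 0.27), a difference that was -0.022 without the mitochondrial and ribosomal limits. Cebpe was 5.93 and 13.9 CPM, with a log2 ratio of 0.79 (0.48 to 1.08) for a pair just under the filter, and ranged from 0.38 to 2.11 over the alternatives. It lay past 2-fold without doublets (1.52), with separate clustering (2.11), with the limit of 5000 genes or at least 1000 genes (1.30 each), with total count normalization (1.29), with a pseudocount of 1 CPM (1.10) and without the mitochondrial and ribosomal limits (1.06). Both lower genes lay short of 2-fold, and over all alternatives their log2 ratios stayed between -0.78 and -0.39 for Cebpb and between -0.86 and -0.68 for Cebpa. At 1000 UMIs per cell, Cebpa was seen in 11.5% (9.11 to 14.3) of wild-type and 5.88% (4.46 to 7.58) of SCD classical monocytes, against 1.11% and 0.328% of erythroid cells, and Cebpb in 58.6% (54.6 to 62.5) and 44.7% (41.4 to 47.9), against 5.56% and 1.64%. In cycling monocytes, with 47 wild-type cells, Cebpb was 675 and 586 CPM and Cebpa 60.8 and 52.0 CPM.

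The classical monocytes of the libraries also differed in other markers. All 8 non-classical markers were lower in SCD, from a summed level of 1148 CPM to 500 CPM, while all 10 division markers were higher (35.9 and 244 CPM), as were 6 of 7 promyelocyte markers (194 and 456 CPM). Of the 12 conventional DC markers 1 was higher in SCD (811 and 354 CPM summed). The part of these markers in the Cebpa and Cebpb ratios was not tested. In non-classical monocytes themselves Cebpb had a log2 ratio of -0.26 (-0.38 to -0.16), which became -1.10 when each library was clustered on its own, and Cebpa of -0.62 (-1.40 to 0.11), the latter from 142 wild-type and 13 SCD UMIs and turned to 0.098 by the same setting.

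The pair past 2-fold, Cebpe in non-classical monocytes, rested on few cells. It was 10.3 CPM (6.84 to 14.9) in wild-type cells, from 28 UMIs in 9 of 403 cells, and 54.5 CPM (34.2 to 82.5) in SCD cells, from 22 UMIs in 4 of 56 cells. The log2 ratio was 1.96 (1.25 to 2.63), and it stayed past 2-fold in 12 of the 12 alternatives in which both libraries had 50 such cells, between 1.30 and 2.84. At equal depth a UMI was seen in 5 wild-type cells (1.25%) and 2 SCD cells (3.57%, 0.435 to 12.3), the latter a share that was not told apart from the 2.51% of SCD early B cells.

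Granule transcripts moved with it. The summed level of Ltf, Camp and Ngp in non-classical monocytes was 2167 CPM in wild-type and 14017 CPM in SCD cells, and all 9 immature granule markers were higher in SCD. Per 10000 UMIs of these 3 genes there were 47.5 Cebpe UMIs in wild-type and 38.9 in SCD non-classical monocytes, against 45.6 and 47.3 in immature neutrophils. Red pulp macrophages (47.6), pDCs (52.6), cDCs (62.2), early B cells (59.5) and erythroid cells (46.1) of the SCD library had ratios between 46.1 and 62.2, beside 61.9 in cycling SCD neutrophils.

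Cebpe also had positive log2 ratios in these other classes, of 2.35 in cDCs (2.47 and 33.1 CPM; 2.23% of tested genes were at least 2-fold higher and 3.19% lower), 2.20 in pDCs (5.08 and 41.4 CPM; 1.19% and 0.285%), 1.26 in red pulp macrophages (36.8 and 94.8 CPM; 2.45% and 5.9%) and 0.69 in erythroid cells (0.955 and 4.59 CPM, under the filter). In early B cells no ratio was formed, with 38 wild-type cells. The cDC and pDC pairs reached the mean of 10 CPM through the SCD library alone, and ratios in these classes were not recomputed under the alternatives. The summed granule level rose with it from 417 to 5323 CPM in cDCs, from 462 to 7863 CPM in pDCs and from 6109 to 19913 CPM in red pulp macrophages. Some other classes had values further from those of the immature neutrophils in Cebpe UMIs per 10000 granule UMIs, for which no intervals were formed. Classical monocytes had 181 in wild-type and 200 in SCD cells, and mature neutrophils 1593 and 129. Cycling monocytes had 3529 and 379, and the SCD progenitors of the Mpo side 149 and SCD promyelocytes of the monocyte side 93.2. Among wild-type cells, cDCs had 59.2, red pulp macrophages 60.2, pDCs 110 and erythroid cells 24.0, the last from 2 Cebpe UMIs. The part of free RNA or of neutrophils captured in the same droplet was not tested, and without called doublets the Cebpe ratio in non-classical monocytes was 2.84.

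Single cells with a pair of members were counted at 1000 UMIs per cell. In mature neutrophils, Cebpb and Spi1 were found together in 28.8% (27.4 to 30.3) of wild-type and 25.1% (22.4 to 27.9) of SCD neutrophils, where the product of their separate shares gave 28.0% and 25.3%. In classical monocytes the same pair was found in 27.3% and 18.5%, with products of 25.8% and 18.1%. Cebpd and Cebpe were together in 11.3% of wild-type and 9.36% of SCD immature neutrophils, with products of 10.3% and 9.75%. The shares together were thus near those of genes seen independently of each other. Cebpe and Gfi1 were together in 6 of 227 SCD promyelocytes (2.64%, 0.976 to 5.66, product 3.46%).

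Profiles were compared across the 29 combinations of class and library with at least 50 cells, over 8082 genes, by Pearson's r of log2 levels. The points share libraries and depth, so r is a description. Among the members, Cebpd and Spi1 (r = 0.86), Cebpa and Cebpb (0.80) and Cebpe and Gfi1 (0.78) were most alike, while Cebpa and Gfi1 had r = -0.24. The 5 genes most like Cebpe were Abca13 (r = 0.96) and Olfml2b, Lcn2, Ncam1 and Rhou (each 0.95), of which Abca13 and Lcn2 were markers of the immature class. Those most like Cebpd were Rab27a, Hp, Dhrs7 and Pstpip1 (each 0.96) and Slc22a15 (0.95), with their highest levels in mature or late intermediate neutrophils. Rab27a is known for the release of granules and Hp encodes haptoglobin, which binds free hemoglobin.

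The genes most like Spi1 were Myo1f (0.98), Csf2ra and Slfn2 (each 0.96) and Tmsb4x and Orai1 (each 0.95). Csf2ra, the alpha chain of the GM-CSF receptor, is a known target of PU.1 and reached 278 CPM in wild-type non-classical monocytes. Those most like Cebpb were Naip2 (0.92), Atp6v1b2 (0.89), Wsb1 (0.88) and Bin2 and Ltbr (each 0.86). Those most like Cebpa were Hexa (0.86), Casp1 and Idh1 (0.85 each) and Atp6v0b and Soat1 (0.84 each). Those most like Gfi1 were Gm10282 and Fcnb (0.88 each), Hmgn2 (0.86) and Rgcc and Ica1 (0.85 each). Fcnb, a marker of the immature class, had its highest level of 1937 CPM in SCD promyelocytes.

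Of 30 other regulators of granulocyte and monocyte fate, 152 of 240 pairs of gene and class passed the filter, and 2 were at least 2-fold higher and 6 at least 2-fold lower in SCD, where by class 0.203% to 2.75% of all tested genes were higher and 0.173% to 3.11% lower. Of the 6 lower pairs 4 were in classical monocytes, out of 22 that passed there (1.28% of all tested genes were lower), where Cebpa and Cebpb were lower as well. They included Trib1, which encodes a pseudokinase that leads C/EBPα to degradation, with 29.1 CPM in wild-type and 6.07 CPM in SCD cells (-1.62), a pair that reached the mean of 10 CPM through the wild-type library. Nr4a1, a factor of non-classical monocytes and an immediate early gene, was 173 and 55.4 CPM (-1.56). Jun was 66.3 and 26.3 CPM (-1.19) and Junb 326 and 147 CPM (-1.12). The median log2 ratio of the 22 regulators in classical monocytes was -0.44, beside -0.074 for all tested genes.

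Elsewhere Junb was lower in SCD early intermediate neutrophils, at 85.0 and 30.8 CPM (-1.33), the class in which Cebpb was lower too. Irf8, a monocyte and DC factor, was lower in erythroid-side progenitors at 37.3 and 13.6 CPM (-1.19), and Hoxa9 was 5.85 and 19.3 CPM (1.16), a pair that reached the mean of 10 CPM through the SCD library. Id2 was higher in SCD non-classical monocytes, at 81.6 and 178 CPM (1.08). In cycling, immature, late intermediate and mature neutrophils 0 regulators were past 2-fold in either direction, out of 13 to 20 that passed the filter.

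Of 16 genes known as targets of these factors, 10 were markers used for naming. Over the 8 classes 112 of 128 pairs passed the filter, and 33 were at least 2-fold higher and 1 lower in SCD, beside the 0.203% to 2.75% of all tested genes higher and 0.173% to 3.11% lower by class. The higher pairs were found in several classes, with 8 of 15 in non-classical monocytes (2.75% of all tested genes were higher), 7 of 16 in classical monocytes (0.606%) and 4 of 8 in erythroid-side progenitors (0.229%). In mature neutrophils, where 1.22% of all tested genes were higher, 6 of 16 were, the granule genes Ltf (47.4 and 496 CPM), Camp (93.1 and 1410 CPM) and Ngp (99.7 and 1278 CPM) and the promyelocyte genes Elane, Mpo and Prtn3. The promyelocyte genes were under 10 CPM in wild-type mature neutrophils and passed the filter through the SCD library, as did Mpo and Prtn3 in immature neutrophils. The granule genes also stood higher in SCD pDCs, cDCs, early B cells and red pulp macrophages, and the part of free RNA in these counts was not tested. Cebpe, which drives the first group, was 38.3 and 41.0 CPM in the same cells. In cycling and immature neutrophils, where Cebpe was high, 1 of 14 and 2 of 13 targets were higher, namely Mmp8 in the former and Mpo and Prtn3 in the latter. Csf3r, the G-CSF receptor gene, was the 1 lower pair, at 36.5 and 9.76 CPM (-1.49) in erythroid-side progenitors, and it too reached the filter through the wild-type library. Regulators and targets were not recomputed under the alternatives.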

How the data were processed

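Single-cell suspensions of 1 spleen per genotype were sequenced with a droplet 3' method. The authors deposited raw UMI counts per gene and cell barcode for each library, made with Cell Ranger 4.0.0 on GRCm38.p6 per the submitters' processing notes. The files held 10845 wild-type and 13447 SCD cells with 97880318 and 189688217 UMIs. Cells with at least 500 genes, under 15% mitochondrial and under 30% ribosomal UMIs were kept, with no upper limit on genes, as were genes found in at least 20 cells. The cells of both libraries were normalized with scran 1.30.0 size factors and clustered together with Leiden (leidenalg 0.10.2, 2000 variable genes without the 6 members, 30 components, 15 neighbours, resolution 1).

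Clusters were named here from 17 marker lists, with naming limits set after the clusters had been seen, so classes may differ from those of the study. Scrublet in scanpy 1.11.5 called 389 wild-type (4.00%) and 303 SCD doublets (2.56%), which were kept in the main values and left out in an alternative. UMIs were summed per class and library and divided by the class total. Shares of cells were taken after thinning to 1000 UMIs, and for Spi1 in erythroid cells also to 2000 UMIs, leaving out shallower cells. With 1 sample per group no differential test was run, and ratios are descriptions of 2 libraries. The intervals cover counting error at 95%. PCR duplicates were collapsed by UMI.

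The members, the lists of 30 regulators and 16 targets and the comparisons were chosen with earlier results of these data known. Regulators past 2-fold in a class were named, up to 8, and the 5 genes with the highest Pearson's r were named for each member. Values were recomputed under 18 other settings in all, each under those that apply to it. A further one without cells whose barcode occurs in both libraries was added after seeing the data. The ratio and interval code was tested on simulated counts. Scripts ran in Python 3.11.15 and R 4.3.3.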

Additional observations from a re-analysis of the deposited data

Results flagged for a closer look

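Among the clusters that received no name and entered no comparison, 2 with at least 50 cells in both libraries held more Cebpe in SCD than in wild-type cells, by at least 2-fold and with counting intervals apart. Here 2-fold was taken on CPM as such, without the 5 CPM added for the other ratios. In a cluster led by Cd209a and Clec10a, with 14 and 82 Cebpe UMIs in the wild-type and SCD cells, Cebpe was 3.10 and 16.4 CPM. In a cluster led by Car1 and Mt2, with 5 and 46 UMIs, it was 0.712 and 2.52 CPM, both under the 5 CPM added elsewhere. Neither pair had a mean of 10 CPM, the filter used for the other ratios. Of all genes with at least 20 SCD UMIs, a bound set on the SCD library alone, 5.12% in the former and 1.82% in the latter cluster met the same limit. The other 5 members met this limit in 0 unnamed clusters. No explanation was tested.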

How the results depend on the processing

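Among the 8 compared classes, the 1 ratio past 2-fold that passed the filter, Cebpe in non-classical monocytes, kept its sign in the 12 alternatives run for it. That of Cebpd in erythroid-side progenitors (-1.05), which did not pass, turned to 0.44 without doublets and 0.028 without mitochondrial and ribosomal limits. Of 618 alternative ratios 550 stayed within the counting interval of the main value and 68 left it. Of 240 alternative shares of cells 189 moved and 51 stayed the same, and of 32 alternative counts 10 moved and 22 stayed the same. The stage mean of Cebpb (-0.12 in the main analysis) was -0.30 both with the limit of 5000 genes per cell and with at least 1000 genes, -0.27 without mitochondrial and ribosomal limits and at resolution 2, -0.62 with each library clustered on its own and -0.35 over the maturity ranges. That of Cebpd (-0.0011) was 0.065 with median-of-ratios scaling, -0.11 with the limit of 5000 genes, -0.14 with at least 1000 genes, -0.12 without mitochondrial and ribosomal limits and -0.19 with separate clustering. That of Spi1 (0.15) was 0.22 with median-of-ratios scaling, 0.21 without the 50 most abundant neutrophil genes in the totals, 0.10 with the limit of 5000 genes, 0.097 with at least 1000 genes, 0.096 at resolution 2, 0.057 over the maturity ranges and -0.023 with separate clustering. That of Cebpe (-0.084) was 0.20 with separate clustering. Separate clustering called 2244 SCD cells mature and 0 wild-type cells late intermediate, so its means rest on fewer stages.

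The count of pairs past 2-fold higher in SCD (1) was 2 with the limit of 5000 genes, 2 with total count normalization, 2 with separate clustering, 3 without doublets, and 0 without mitochondrial and ribosomal limits and with a filter of 50 CPM. The count lower (0) was 1 with a pseudocount of 1 CPM (Cebpa in mature neutrophils), 1 without the 50 most abundant genes, 1 with separate clustering and 1 with no filter on CPM. The cause was not tested. No paired analysis was possible because there was 1 sample per genotype. Non-classical monocytes numbered 49 SCD cells with at least 1000 genes and 46 without mitochondrial and ribosomal limits, which left no ratio there. Erythroid-side progenitors numbered 0 cells in both libraries under 3 alternatives. They were also too few for a ratio at resolution 2 (44 wild-type cells), with separate clustering (0 SCD cells) and without shared barcodes (45 wild-type cells). Maturity ranges were run for the stage means only. With 1 animal per genotype, animal and genotype cannot be told apart.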
